A study of Mus musculus with 9 samples.

Results

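The 9 genes described here encode 6 ubiquitin ligases (Cbl, Cblb, Itch, Nedd4, Rnf128 and Peli1), 2 diacylglycerol kinases (Dgka and Dgkz) and the anergy factor Ndrg1, and they were taken by gene symbol from a table of 55487 genes. All 9 were listed. The table holds RNA-seq of CD4+ T cells isolated by negative selection from spleens of wild-type C57BL/6 mice, with 3 libraries in each of 3 groups; the methods describe the mice as females of 6 to 7 weeks. Medium libraries came from cells kept in culture medium only, stimulated libraries from cells given antibodies to CD3 (3 µg/ml) plus CD28 (2 µg/ml) for 24 h, and TRAIL-treated libraries from cells given the same antibodies together with TRAIL at 10 µg/ml for 24 h. Anti-CD3 engages the T cell receptor complex and anti-CD28 the main costimulatory receptor, while TRAIL is a ligand of the TNF family. The labels give no culture time for the medium group and do not say whether replicates were separate mice or cultures, so the p-values measure the spread between these libraries, which may be technical. The comparison of stimulation with and without TRAIL asks what TRAIL receptor engagement does during T cell activation, and the medium group gives the level without stimulation.

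Anergy is the state in which a T cell that has met antigen without adequate costimulation responds poorly to a later encounter. Ubiquitin ligases of several families mark receptor-proximal signalling proteins for degradation or sorting in such cells. Diacylglycerol kinases act on the lipid branch: phospholipase C releases diacylglycerol, which recruits RasGRP and protein kinase C proteins, and the kinases end that signal by phosphorylating diacylglycerol to phosphatidate. High levels of diacylglycerol kinases are associated with weak receptor signalling.

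Values are TPM (transcripts per 1000000), a level that is already per transcript length and has the same sum in each library. TPM keeps no record of depth, so the read depth behind a value is unknown. Changes are differences in log2(TPM + 1), which understate the change of low genes, each with its standard error. They were tested with limma over the 15536 genes that reached 1 TPM in at least 3 libraries. Genes other than the 9 are given as the mean ± SD of the 3 libraries, in the order medium, stimulated, TRAIL-treated. A gene is said to have risen or fallen where the Benjamini-Hochberg adjusted p was below 0.05.

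Before the 9 genes, the makeup of the libraries needs stating. The summed level of 8 T cell markers was 3121 to 3353 TPM in medium, 3038 to 3152 TPM in stimulated and 3181 to 3503 TPM in TRAIL-treated libraries. The summed level of 10 B cell markers was 6540 to 7195 TPM in medium, 732 to 801 TPM in stimulated and 3212 to 3714 TPM in TRAIL-treated libraries, and 14 myeloid markers summed to 2347 to 2560, 101 to 124 and 1710 to 1945 TPM in the same order. All 10 B cell and all 14 myeloid markers fell with stimulation and were higher with TRAIL than with stimulation alone. The 6 erythroid markers summed to 2117 to 2554, 24.8 to 39.6 and 616 to 665 TPM, with Slc4a1 at the floor of 0.0001 TPM in every stimulated library. The 5 NK cell markers summed to 160 to 206, 33.9 to 39.8 and 60.4 to 70.3 TPM, the 2 CD8 genes to 110 to 118, 94.2 to 105 and 46.9 to 49.4 TPM, and the 4 regulatory T cell markers to 62.6 to 76.1, 61.1 to 93.5 and 68.0 to 78.9 TPM. The share of TPM from mitochondrially encoded genes was 9.33% to 10.8%, 5.65% to 5.98% and 9.06% to 11.0%. Markers of B, myeloid, erythroid and NK cells were thus lowest in the stimulated group, and in such bulk libraries fewer cells of a type and less RNA per cell cannot be told apart. The part of these markers in the results below was not tested.

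All 8 testable genes changed with stimulation, against 68.7% of all genes tested, and 7 of them differed between TRAIL-treated and stimulated cells, against 67.1%. With stimulation 6 of the 8 fell (Cbl, Itch, Nedd4, Peli1, Dgka and Dgkz), whereas Cblb and Ndrg1 rose; over all genes tested 40.0% fell and 28.8% rose. Between TRAIL-treated and stimulated cells 5 of the 8 were higher with TRAIL (Cbl, Itch, Peli1, Dgka and Dgkz) and 2 were lower (Cblb and Ndrg1), against 33.5% and 33.5% of all genes. Between TRAIL-treated cells and medium none of the 8 rose and 1 fell, Nedd4, against 8.03% and 24.6% of all genes, or 32.6% in either direction. These shares depended on the scaling and on single libraries. Under median-of-ratios scaling 12.1% rose and 14.1% fell, and of the 8 genes 1 rose and 1 fell. The share that fell was 16.2% under quantile normalization and 15.9% without medium replicate 3. It was 15.2% (21.3% in either direction) without TRAIL-treated replicate 3. Without stimulated replicate 1 it was 30.9% (40.8% in either direction), and 3 of the 8 genes fell. In each comparison with the stimulated group the share of the 8 that changed was above that of all genes, but most genes changed there. The libraries of the 2 groups did not overlap for 8, 7 and 4 of the 8 genes in the 3 comparisons, against 72.6%, 70.4% and 50.6% of all genes tested. The median change of the 8 genes was -0.94, 0.74 and -0.043, and that of all genes tested was -0.15, 0.011 and -0.18. The comparisons share their groups in pairs, so a low or high stimulated group enters both of the first 2 with opposite sign, and nothing is read from opposite directions in them.

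**Figure D1:**
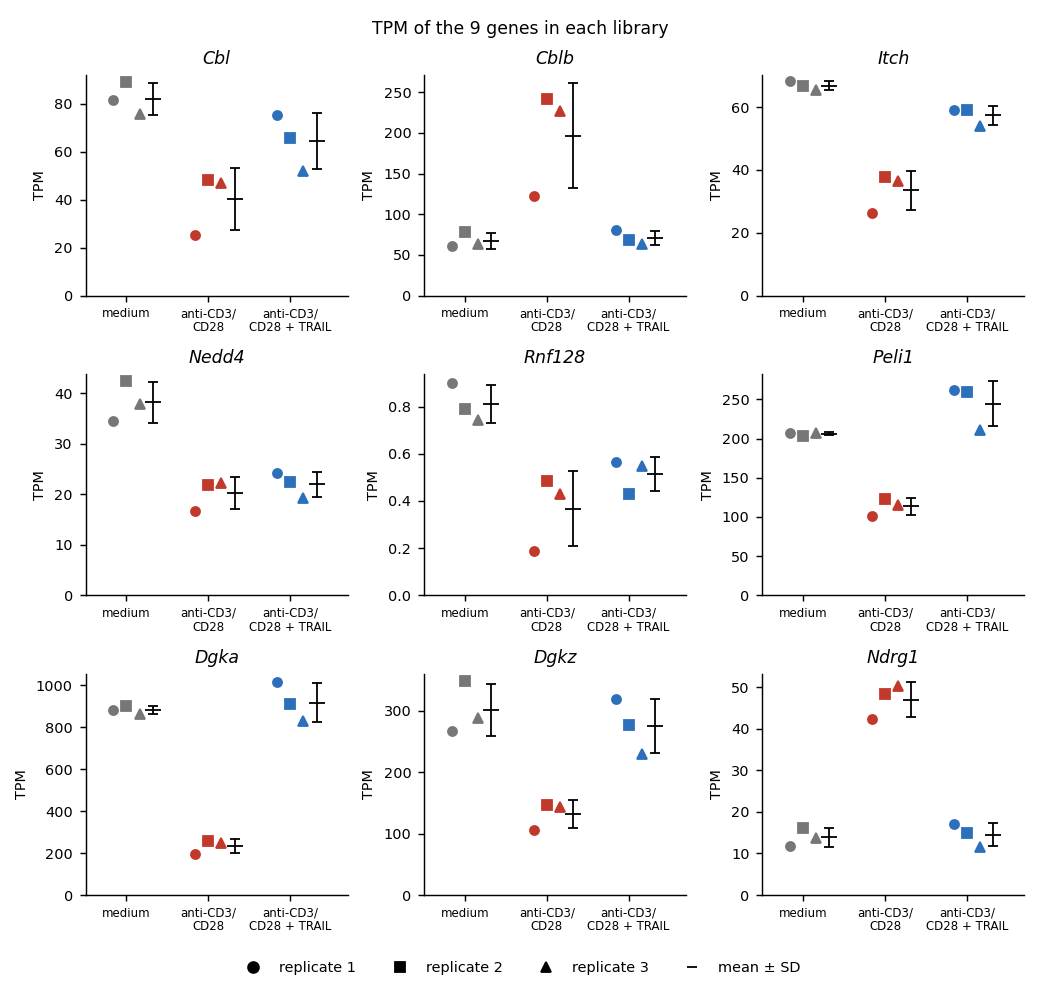
TPM of each of the 9 genes (vertical axes, each starting at 0) in the 3 medium, 3 stimulated (anti-CD3/CD28) and 3 TRAIL-treated libraries, with the replicate number as the symbol and the mean ± SD beside the points. The stimulated libraries stood below both other groups for Cbl, Itch, Peli1, Dgka and Dgkz and above both for Cblb and Ndrg1, while Nedd4 was low in both groups given antibodies.

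The CBL proteins are RING-type ligases that bind activated tyrosine kinases and their partners, and Cblb in particular sets the need for CD28 costimulation. Their transcripts moved in opposite directions. Cblb (ENSMUSG00000022637, chr16:52031225-52208048, plus strand, GRCm38) was at 60.5, 78.3 and 63.2 TPM in medium, 122, 241 and 227 TPM in stimulated and 80.4, 68.5 and 63.7 TPM in TRAIL-treated libraries. Every stimulated library was above every other library, and the medium and TRAIL-treated values overlapped. The difference was 1.48 ± 0.23 (SE) for stimulated against medium (limma adjusted p = 2.4e-04), -1.40 ± 0.23 for TRAIL-treated against stimulated (limma adjusted p = 3.5e-04) and 0.075 ± 0.23 for TRAIL-treated against medium (limma adjusted p = 0.83), the last with a 95% interval of -0.44 to 0.59. Cbl (ENSMUSG00000034342, chr9:44142976-44234049, minus strand) was at 81.5, 89.0 and 75.7 TPM in medium, 25.4, 48.2 and 47.1 TPM in stimulated and 75.3, 65.6 and 52.0 TPM in TRAIL-treated libraries. No 2 groups overlapped, although the highest TRAIL-treated and the lowest medium library were 75.3 and 75.7 TPM, and the lowest TRAIL-treated and the highest stimulated library 52.0 and 48.2 TPM. Cbl fell with stimulation by 1.06 ± 0.23 (limma adjusted p = 0.0019) and was 0.70 ± 0.23 higher with TRAIL than without it (limma adjusted p = 0.019), and against medium the TRAIL-treated group differed by -0.36 ± 0.23 (limma adjusted p = 0.25). The rise of Cbl with TRAIL was not firm: it was 0.58 (limma adjusted p = 0.072) without TRAIL-treated replicate 1, 0.68 (limma adjusted p = 0.053) without TRAIL-treated replicate 2 and 0.41 (limma adjusted p = 0.028) without stimulated replicate 1, and its adjusted p was 0.15 with no filter on low genes.

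Because both genes were read in the same library, their ratio does not depend on the scaling of that library. Cbl exceeded Cblb in medium, with ratios of 1.347, 1.137 and 1.198, and fell to ratios of 0.208, 0.200 and 0.208 after stimulation. The 3 stimulated ratios lay close together (SD 0.034 on the log2 scale), although Cblb itself ranged from 122 to 241 TPM in these libraries. With TRAIL the ratios were 0.936, 0.957 and 0.817, between the other groups and overlapping neither. The ratio differed among the groups in an exact two-sided permutation test over all arrangements of the libraries (p = 0.0036, the smallest it can give, and 0.011 adjusted over the 3 gene pairs examined).

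The RefSeq promoter window of Cbl is shown because it holds a match to an EGR site, and Egr2 and Egr3, factors linked to anergy, were measured in the same libraries. The window is on GRCm38.p6 at chr9:44234050-44234296, minus strand, printed 5′ to 3′ up to the first annotated exon with the match in capitals:
Cbl: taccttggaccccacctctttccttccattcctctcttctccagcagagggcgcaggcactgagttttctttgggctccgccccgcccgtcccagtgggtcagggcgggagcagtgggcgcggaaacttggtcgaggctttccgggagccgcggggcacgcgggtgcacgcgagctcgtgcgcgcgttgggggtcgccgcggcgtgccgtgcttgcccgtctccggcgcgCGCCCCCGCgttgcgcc
The capitals are the reverse complement of GCGGGGGCG and begin 20 bases before the RefSeq start. The motifs searched on both strands of the 250 bases before each start were the EGR forms GCGTGGGCG and GCGGGGGCG, the FOXO form TGTTTAC, the AP-1 form TGANTCA and the hypoxia-inducible factor core ACGTG. They were held by 0.536%, 2.57%, 3.17%, 6.75% and 16.6% of all 32851 such windows, in that order. There were 12 windows for 7 of the 9 genes, with Itch and Ndrg1 not matched. Across these windows GCGGGGGCG was found in Cbl and Nedd4, ACGTG in Cblb, Dgka, Dgkz and Nedd4 and TGANTCA in Nedd4. The Cbl window had a GC content of 71.6% against a median of 52.4% over all windows. A match describes letters only and is not a measured binding site. Egr2 was at 17.8 ± 2.9, 85.6 ± 7.4 and 141 ± 14 TPM (mean ± SD, n = 3) in medium, stimulated and TRAIL-treated cells, and Egr3 at 53.2 ± 9.3, 57.5 ± 6.5 and 226 ± 17 TPM.

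Genes that work with the CBL proteins were examined as a list of 12, of which 11 were tested. With stimulation 7 fell and 1 rose, and with TRAIL against stimulation 7 rose and 2 fell. The median change was -0.71 and 0.50. This list and those below are to be set beside all genes tested, of which 40.0% fell and 28.8% rose with stimulation. With TRAIL against stimulation 33.5% rose and 33.5% fell. In TRAIL-treated cells against medium 8.03% rose and 24.6% fell. Sh3kbp1 (CIN85), an adaptor for CBL-mediated receptor internalisation, was at 258 ± 7.3, 74.3 ± 15 and 215 ± 50 TPM and rose by 1.52 ± 0.18 with TRAIL (limma adjusted p = 3.9e-05). Pik3r1, the p85 subunit of phosphoinositide 3-kinase and a partner of Cblb, was at 98.1 ± 8.2, 31.2 ± 9.8 and 96.7 ± 5.1 TPM and rose by 1.66 ± 0.20 (limma adjusted p = 4.2e-05). Sla, which encodes the adaptor SLAP that brings CBL to the receptor, went the other way, at 206 ± 8.1, 337 ± 11 and 215 ± 6.0 TPM. Its relative Sla2 was at 28.7 ± 0.33, 13.2 ± 1.1 and 25.3 ± 3.2 TPM. Between TRAIL-treated cells and medium 2 of the 11 fell, Crk and Grb2, and none rose.

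Itch and Nedd4 are HECT-type ligases that are switched on by NDFIP adaptors, and Itch is known to restrain T cell responses. Both transcripts fell with stimulation but parted with TRAIL. Itch (ENSMUSG00000027598, chr2:155133509-155226855, plus strand) was at 68.2, 66.7 and 65.5 TPM in medium, 26.3, 37.7 and 36.4 TPM in stimulated and 59.1, 59.0 and 54.0 TPM in TRAIL-treated libraries. The 3 groups did not overlap, with the TRAIL-treated libraries between the others and nearer to medium. Itch fell by 0.99 ± 0.13 with stimulation (limma adjusted p = 6.8e-05), was 0.78 ± 0.13 higher with TRAIL than without (limma adjusted p = 4.0e-04) and differed from medium by -0.22 ± 0.13 (limma adjusted p = 0.23). Nedd4 (ENSMUSG00000032216, chr9:72662346-72749852, plus strand) was at 34.4, 42.5 and 37.8 TPM in medium, 16.7, 21.9 and 22.2 TPM in stimulated and 24.3, 22.4 and 19.2 TPM in TRAIL-treated libraries. The stimulated and TRAIL-treated libraries overlapped, and all 6 were below every medium library. Nedd4 fell by 0.89 ± 0.14 with stimulation (limma adjusted p = 2.5e-04) and by 0.78 ± 0.14 in TRAIL-treated cells against medium (limma adjusted p = 0.0030). The difference between TRAIL-treated and stimulated cells was 0.12 ± 0.14 (limma adjusted p = 0.49), with a 95% interval of -0.20 to 0.43, so a rise as large as that of Itch lay outside the interval. The ratio of Itch to Nedd4 within a library was 1.98, 1.57 and 1.73 in medium, 1.58, 1.72 and 1.64 in stimulated and 2.44, 2.64 and 2.81 in TRAIL-treated libraries. Every TRAIL-treated ratio was above every other, while medium and stimulated overlapped (exact two-sided permutation test among the 3 groups, p = 0.018, 0.018 adjusted over the 3 pairs).

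The first of the 2 RefSeq windows of Nedd4 (GRCm38.p6, chr9:72662081-72662330, plus strand) is shown beside that of Cbl because both hold the GCGGGGGCG letters. Capitals mark ACGTG, 158 bases before the start and read on the opposite strand, and GCGGGGGCG, 46 bases before the start, also on the opposite strand:
Nedd4: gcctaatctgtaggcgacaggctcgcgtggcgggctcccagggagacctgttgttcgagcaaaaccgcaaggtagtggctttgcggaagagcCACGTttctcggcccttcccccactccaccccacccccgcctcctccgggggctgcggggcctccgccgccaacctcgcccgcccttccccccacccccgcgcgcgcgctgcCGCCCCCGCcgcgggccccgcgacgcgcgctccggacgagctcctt
This window had a GC content of 74.0%. The second window, at chr9:72693048-72693297, held 1 match to TGANTCA, 152 bases before its start.

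Of 9 further HECT ligases and adaptors 7 were tested. With stimulation 5 fell and 1 rose, 5 rose and 1 fell with TRAIL against stimulation, and none passed the test between TRAIL-treated cells and medium. Their median change was -0.70, 0.69 and 0.15. Smurf2, a ligase of TGF-beta receptors and SMAD proteins, was at 49.8 ± 1.5, 21.3 ± 4.1 and 59.0 ± 2.1 TPM and rose by 1.45 ± 0.13 with TRAIL (limma adjusted p = 4.6e-06). Nedd4l, the closest relative of Nedd4 among them, was at 14.6 ± 2.8, 7.08 ± 1.7 and 14.7 ± 2.2 TPM and rose by 0.97 ± 0.19 (limma adjusted p = 0.0011). The adaptor Ndfip1, which activates Itch and Nedd4, had the opposite pattern at 178 ± 24, 349 ± 25 and 198 ± 28 TPM. It rose by 0.97 with stimulation (limma adjusted p = 8.5e-05) and was 0.83 lower with TRAIL (a difference of -0.83, limma adjusted p = 2.8e-04). Ndfip2 was at 22.5 ± 0.83, 24.4 ± 2.1 and 26.6 ± 1.3 TPM and passed no test.

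Rnf128 encodes GRAIL, a membrane-anchored ligase first described in anergic CD4+ T cells, and its transcript was barely present. Rnf128 (ENSMUSG00000031438, chrX:139563316-139673145, plus strand) was at 0.901, 0.789 and 0.741 TPM in medium, 0.186, 0.486 and 0.427 TPM in stimulated and 0.564, 0.429 and 0.548 TPM in TRAIL-treated libraries. Every library was below 1 TPM, so the gene was left out of the tests. Medium stood above both other groups, and stimulated and TRAIL-treated libraries overlapped. With no filter on low genes the difference was -0.41 ± 0.10 for stimulation against medium (limma adjusted p = 0.030) and 0.15 ± 0.10 for TRAIL-treated against stimulated (limma adjusted p = 0.57). At such levels the log2(TPM + 1) scale compresses any change, and the reads behind the values are unknown. The other genes of the GRAIL circuit were well above this level. Otub1, a deubiquitinase that opposes GRAIL, was at 76.4 ± 2.5, 87.4 ± 1.6 and 55.7 ± 5.1 TPM and was lower with TRAIL than with stimulation alone, by -0.64 ± 0.09 (limma adjusted p = 1.2e-04). Usp8, the other deubiquitinase of the circuit, was at 71.4 ± 2.0, 63.7 ± 17 and 60.2 ± 3.0 TPM and passed no test. Among related transmembrane RING ligases Rnf167 was at 246 ± 16, 57.3 ± 3.0 and 169 ± 19 TPM, a rise of 1.54 ± 0.10 with TRAIL (limma adjusted p = 5.0e-07). In all, 3 of the 6 tested partners and relatives fell with stimulation and none rose, and with TRAIL 3 rose and 1 fell. Between TRAIL-treated cells and medium Rnf149 rose and Otub1 and Rnf167 fell.

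Peli1 encodes a RING-like ligase of the Pellino family that acts in Toll-like receptor signalling and, in T cells, limits NF-kappaB activity. Peli1 (ENSMUSG00000020134, chr11:21091291-21150323, plus strand) was at 208, 204 and 207 TPM in medium, 102, 123 and 116 TPM in stimulated and 262, 260 and 211 TPM in TRAIL-treated libraries. The medium values lay close together, the stimulated values were the lowest and the TRAIL-treated values the highest, with no overlap between groups. Peli1 fell with stimulation by 0.86 ± 0.11 (limma adjusted p = 5.9e-05) and was 1.10 ± 0.11 higher with TRAIL than without (limma adjusted p = 9.9e-06). Against medium the TRAIL-treated group differed by 0.24 ± 0.11 (limma adjusted p = 0.13), a difference that passed under median-of-ratios scaling (0.42, limma adjusted p = 0.0040) and without TRAIL-treated replicate 3 (0.34, limma adjusted p = 0.045). Its paralogs Peli2 and Peli3 were below 1 TPM on average in all groups and were not tested. Among 7 tested Pellino, TRAF and deubiquitinase genes 2 rose and 1 fell with stimulation, 2 rose and 2 fell with TRAIL against stimulation, and between TRAIL-treated cells and medium Tnfaip3 rose and Otud7b fell. Tnfaip3, the NF-kappaB-induced ubiquitin editor A20, was at 92.5 ± 8.4, 115 ± 18 and 715 ± 20 TPM, a rise of 2.64 ± 0.12 with TRAIL (limma adjusted p = 3.5e-08) that also stood 2.94 above medium (limma adjusted p = 3.3e-07). Traf6, a ligase of the same pathway, was at 31.0 ± 1.7, 45.3 ± 6.6 and 31.8 ± 3.5 TPM, and Traf2, Traf3 and Cyld did not pass the test of TRAIL against stimulation.

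**Figure D2:**
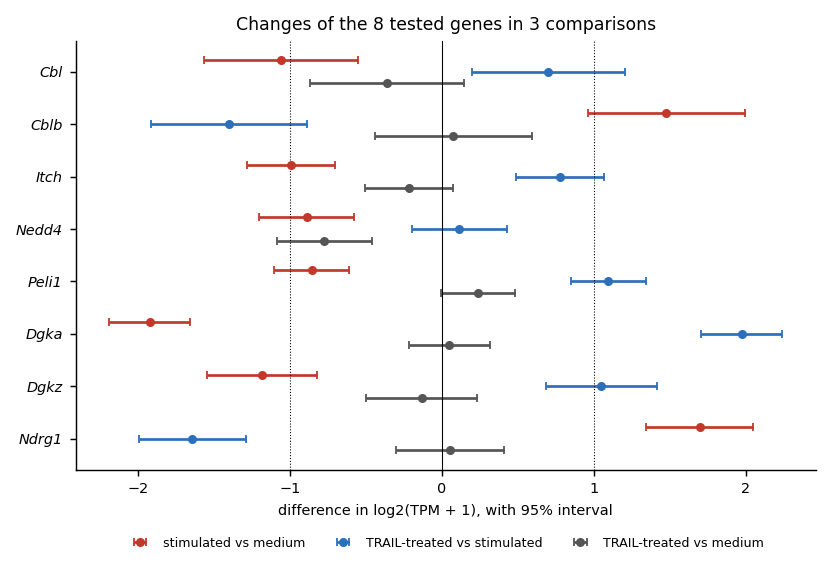
Differences in log2(TPM + 1) of the 8 tested genes, with 95% intervals from limma, for stimulated against medium, TRAIL-treated against stimulated and TRAIL-treated against medium; dotted lines mark a difference of 1 in either direction. The intervals for stimulated against medium exclude 0 for all 8 genes, those for TRAIL-treated against stimulated exclude 0 for all but Nedd4, and the intervals for TRAIL-treated against medium include 0 for every gene but Nedd4.

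Dgka and Dgkz encode the main diacylglycerol kinases of T cells, DGK-alpha and DGK-zeta, and their transcripts were the most abundant of the 9 genes in medium. Dgka (ENSMUSG00000025357, chr10:128720134-128744855, minus strand) was at 885, 904 and 866 TPM in medium, 197, 258 and 247 TPM in stimulated and 1014, 911 and 830 TPM in TRAIL-treated libraries. All stimulated libraries were far below the other 6, whose groups overlapped. Dgka fell with stimulation by 1.93 ± 0.12 (limma adjusted p = 2.6e-07) and was 1.97 ± 0.12 higher with TRAIL than without (limma adjusted p = 2.4e-07). Against medium the TRAIL-treated group differed by 0.049 ± 0.12 (limma adjusted p = 0.78), with a 95% interval of -0.22 to 0.32. On the TPM scale the mean of the TRAIL-treated group was 3.93 times that of the stimulated group and 1.04 times that of medium. Dgkz (ENSMUSG00000040479, chr2:91932824-91975864, minus strand) was at 267, 348 and 289 TPM in medium, 106, 147 and 144 TPM in stimulated and 318, 277 and 230 TPM in TRAIL-treated libraries. The stimulated libraries were again below the other 6, and medium and TRAIL-treated libraries overlapped. Dgkz fell by 1.19 ± 0.16 with stimulation (limma adjusted p = 9.8e-05), was 1.05 ± 0.16 higher with TRAIL (limma adjusted p = 2.4e-04) and differed from medium by -0.13 ± 0.16 (limma adjusted p = 0.56). A microRNA gene on the same strand within Dgkz, Mir6999, was listed at means of 10.9, 3.18 and 11.9 TPM, so the split of reads between these 2 genes is uncertain. Pmel, which overlaps Dgka on the opposite strand, was listed at means of 1.46, 1.15 and 1.14 TPM.

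The RefSeq window of Dgka that holds a motif match, at a start inside the annotated gene, is shown because Dgka was the most abundant of the 9 genes in medium. It lies at chr10:128737613-128737862 on GRCm38.p6, minus strand, and is 1 of 4 windows of the gene:
Dgka: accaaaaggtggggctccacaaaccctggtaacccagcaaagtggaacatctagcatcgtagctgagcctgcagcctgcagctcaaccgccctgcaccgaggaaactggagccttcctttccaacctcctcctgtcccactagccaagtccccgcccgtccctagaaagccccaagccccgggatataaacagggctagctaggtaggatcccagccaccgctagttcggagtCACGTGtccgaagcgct
The capitals mark ACGTG on both strands, which overlap in the palindrome CACGTG, beginning 17 bases before the start. The other 3 windows of Dgka lie nearer to the 5′ end of the gene and held none of the motifs searched. Both windows of Dgkz, also inside that gene, held ACGTG, at 203 and 207 bases before their starts.

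The change of Dgka was larger than that of Dgkz. The ratio of Dgka to Dgkz was 3.32, 2.60 and 3.00 in medium, 1.85, 1.75 and 1.72 in stimulated and 3.19, 3.29 and 3.61 in TRAIL-treated libraries. Stimulated ratios were below all others, and medium and TRAIL-treated ratios overlapped. The exact two-sided permutation test among the groups gave p = 0.011 (0.016 adjusted over the 3 pairs).

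**Figure D3:**
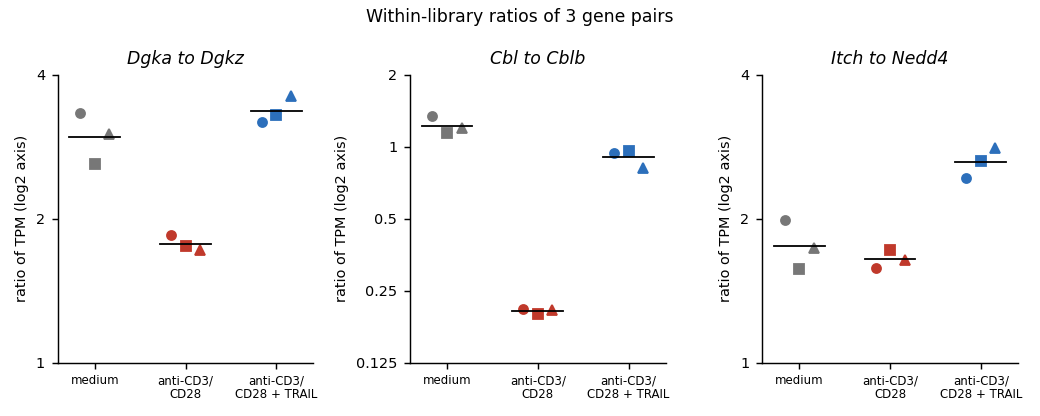
Ratio of TPM within each library for 3 pairs of genes, on log2 axes, with the replicate number as the symbol and a line at the geometric mean of the group. Stimulated libraries stand apart for Dgka to Dgkz and Cbl to Cblb, and TRAIL-treated libraries stand apart for Itch to Nedd4.

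The 10 diacylglycerol kinase genes together summed to 1352 ± 73.4 TPM in medium, 449 ± 71.3 TPM in stimulated and 1359 ± 158 TPM in TRAIL-treated cells (mean ± SD, n = 3). Dgka made up 65.5% ± 2.4, 52.3% ± 1.3 and 67.7% ± 1.2 of that sum and Dgkz 22.2% ± 1.9, 29.5% ± 0.40 and 20.2% ± 0.95. Dgkd, the next most abundant family member, was at 136 ± 14, 64.8 ± 12 and 133 ± 19 TPM and rose by 1.03 ± 0.16 with TRAIL (limma adjusted p = 1.9e-04). Dgke rose by 1.28 ± 0.14 (limma adjusted p = 1.9e-05) from 6.02 ± 1.1 to 15.97 ± 1.5 TPM. Of the 8 further genes of the family 6 were tested, of which 4 fell with stimulation and 3 rose with TRAIL, and none moved the other way. Between TRAIL-treated cells and medium Dgki rose and none fell. The gene Dgki was at 0.0345 TPM in 1 stimulated library and at the floor of 0.0001 TPM in the other two, against 2.58 to 3.90 TPM with TRAIL, and no fold is given. Dgkb was at the floor in every library.

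**Figure D4:**
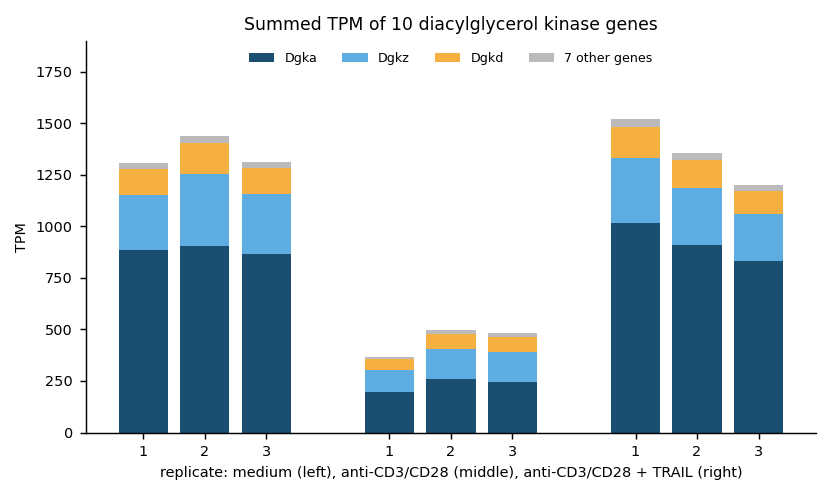
Summed TPM of the 10 diacylglycerol kinase genes in each library, stacked by Dgka, Dgkz, Dgkd and the 7 other genes, for the medium (left), stimulated (middle) and TRAIL-treated (right) replicates. The sum is near 449 TPM in stimulated libraries against about 1352 and 1359 TPM in medium and TRAIL-treated libraries, and Dgka loses share within it.

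Genes of families that make or read diacylglycerol were examined beside the kinases that remove it. Of 13 tested, 11 fell and 2 rose with stimulation, and 10 rose and 1 fell with TRAIL against stimulation, with median changes of -1.26 and 0.82. Rasgrp2, an activator of Rap proteins, was at 384 ± 27, 25.7 ± 3.9 and 331 ± 39 TPM, a rise of 3.64 ± 0.13 with TRAIL (limma adjusted p = 7.6e-09). Rasgrp1, the main Ras activator downstream of the T cell receptor, was at 180 ± 9.0, 63.1 ± 12 and 194 ± 12 TPM and rose by 1.62 ± 0.13 (limma adjusted p = 2.0e-06). Rasgrp3, which is prominent in B cells, was at 30.1 ± 1.1, 2.15 ± 0.66 and 14.5 ± 1.2 TPM and rose by 2.31 (limma adjusted p = 5.1e-07), in the same order as the summed B cell markers. Prkcq, the protein kinase C of the immune synapse, was at 154 ± 13, 99.9 ± 11 and 193 ± 14 TPM and rose by 0.95 (limma adjusted p = 2.8e-05). The 1 gene that was lower with TRAIL, Prkca, was at 22.4 ± 2.9, 35.0 ± 8.8 and 21.8 ± 2.8 TPM. Between TRAIL-treated cells and medium 2 of the 13 rose (Prkch and Prkcq) and 3 fell (Plcg2, Rasgrp3 and Rasgrp4).

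Of the enzymes on the phosphatidate side 9 were tested, of which 5 rose and 1 fell with TRAIL against stimulation, with a median change of 0.88. Lpin1, a phosphatidate phosphatase that regenerates diacylglycerol, was at 25.5 ± 1.9, 8.35 ± 2.3 and 25.9 ± 4.7 TPM and rose by 1.54 ± 0.19 (limma adjusted p = 4.7e-05). Plpp3, a membrane lipid phosphatase, was at 7.83 ± 2.0, 0.630 ± 0.17 and 6.93 ± 0.49 TPM and rose by 2.29 ± 0.16 (limma adjusted p = 8.3e-07). The 1 gene that was lower with TRAIL, the lipid phosphatase gene Plpp2, named after its values were seen, was at 1.80 ± 0.39, 4.04 ± 0.90 and 1.204 ± 0.063 TPM, a difference of -1.18 ± 0.16 (limma adjusted p = 1.1e-04). With stimulation 6 of the 9 fell and 1 rose, and none passed the test between TRAIL-treated cells and medium.

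Ndrg1 is a cytoplasmic protein that is induced by hypoxia and stress and has been described as a factor of T cell clonal anergy. Ndrg1 (ENSMUSG00000005125, chr15:66929318-66969640, minus strand) was at 11.7, 16.2 and 13.7 TPM in medium, 42.3, 48.3 and 50.3 TPM in stimulated and 17.0, 14.9 and 11.5 TPM in TRAIL-treated libraries. All stimulated libraries were above all others, and medium and TRAIL-treated libraries overlapped. Ndrg1 rose with stimulation by 1.70 ± 0.16 (limma adjusted p = 5.3e-06), was lower with TRAIL than without, by -1.65 ± 0.16 (limma adjusted p = 7.1e-06), and differed from medium by 0.053 ± 0.16 (limma adjusted p = 0.82, 95% interval -0.30 to 0.41). Its relative Ndrg2 was at 15.0 ± 0.85, 24.9 ± 0.62 and 11.1 ± 2.0 TPM and was also lower with TRAIL (-1.11 ± 0.13, limma adjusted p = 2.7e-05) and fell against medium (-0.42 ± 0.13, limma adjusted p = 0.032). Ndrg3 was at 102 ± 5.4, 78.7 ± 6.3 and 98.6 ± 12 TPM, lowest in stimulated cells. Of 12 hypoxia-response genes 8 rose and 3 fell with stimulation, and 9 fell and 3 rose with TRAIL against stimulation. Between TRAIL-treated cells and medium 4 rose (Vegfa, Slc2a1, Egln3 and P4ha1) and 2 fell (Bnip3 and Ddit4). Egln3, an oxygen-sensing prolyl hydroxylase, was at 2.06 ± 0.41, 210 ± 11 and 5.21 ± 0.66 TPM, and Bnip3, a mitophagy receptor, at 8.15 ± 0.99, 105 ± 13 and 5.47 ± 0.98 TPM. Vegfa, the angiogenic growth factor, was at 1.29 ± 0.55, 92.6 ± 9.2 and 15.9 ± 2.2 TPM and stayed 2.90 above medium with TRAIL (limma adjusted p = 3.1e-06). Pfkfb4, a glycolytic regulator, was among the 3 that rose with TRAIL, at 13.2 ± 1.0, 4.94 ± 0.63 and 11.5 ± 0.80 TPM.

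Among 18 other genes associated with anergy or tolerance 10 rose and 4 fell with TRAIL against stimulation, against 33.5% and 33.5% of all genes tested. Their median change was 0.69. With stimulation itself 7 rose and 7 fell, against 28.8% and 40.0%. Tob1, an antiproliferative factor of resting T cells, was at 106 ± 10, 14.9 ± 1.9 and 201 ± 11 TPM, a rise of 3.67 ± 0.12 with TRAIL (limma adjusted p = 3.1e-09). Dtx1, a Deltex ligase linked to anergy, was at 153 ± 24, 10.4 ± 1.8 and 122 ± 18 TPM and rose by 3.43 ± 0.16 (limma adjusted p = 4.1e-08). Foxo1, a transcription factor of quiescence, was at 90.7 ± 14, 38.6 ± 8.4 and 89.2 ± 12 TPM and rose with TRAIL (limma adjusted p = 1.8e-04). Like Dgka, these 3 genes were low in stimulated cells and higher in both other groups. The same held for all 10 B cell, 14 myeloid and 6 erythroid markers. Lag3, an inhibitory receptor, was at 13.5 ± 2.5, 369 ± 14 and 12.0 ± 0.84 TPM and was lower with TRAIL by -4.83 ± 0.12 (limma adjusted p = 9.1e-10). Izumo1r, the folate receptor 4 that marks anergic and regulatory T cells, was at 92.3 ± 8.3, 208 ± 9.0 and 98.2 ± 13 TPM. Both were highest in stimulated cells, as were Cblb and Ndrg1. Against medium 6 of the 18 rose and none fell, among them Egr2, Egr3, Tob1 and Nr4a1, an immediate early nuclear receptor that was at 177 ± 19, 215 ± 21 and 1926 ± 49 TPM.

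**Figure D5:**
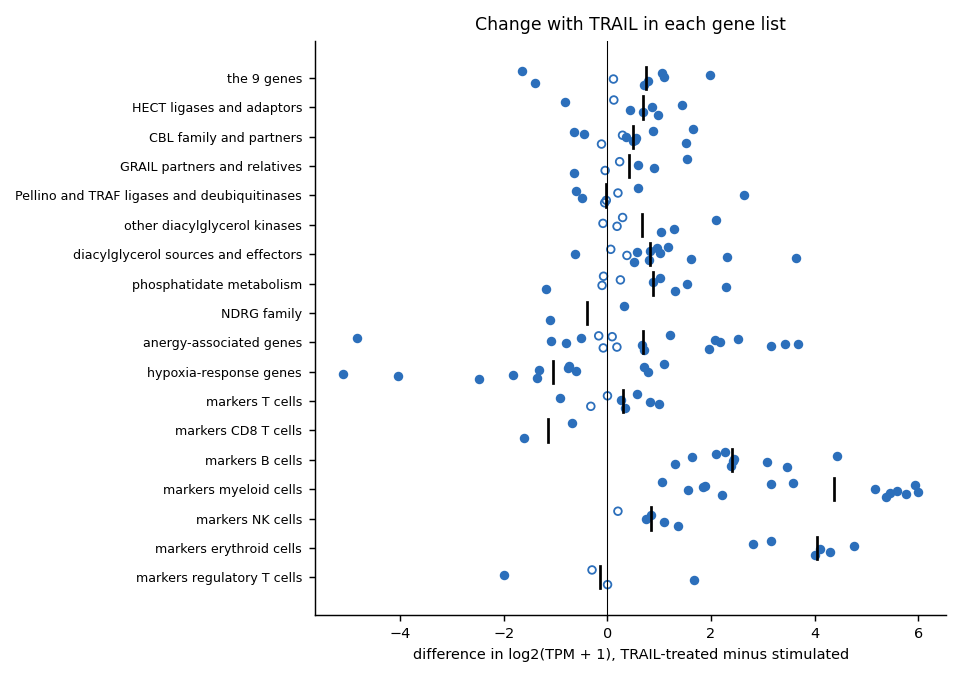
Difference in log2(TPM + 1) between TRAIL-treated and stimulated cells for each tested gene of the 9 genes, the 10 other lists and the 7 marker lists, with filled points where the limma adjusted p was below 0.05, open points otherwise and a bar at each list's median. The 8 tested genes have a median of 0.74, the hypoxia-response genes a median of -1.04, and every B cell, myeloid and erythroid marker lies above 0.

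The replicates within a group were not evenly placed. Stimulated replicate 1 had the lowest value of its group for all 9 genes, TRAIL-treated replicate 1 the highest for all 9 and TRAIL-treated replicate 3 the lowest for 8 of the 9, all but Rnf128. Over all tested genes the same positions were held by 58.5%, 54.3% and 61.4%. They were more common among genes with a long annotated transcript: stimulated replicate 1 was lowest for 88.3% of those above the upper quartile of transcript length (4244 bases), and for 31.5% of those at or below the lower quartile (1306 bases). The longest annotated transcripts of the 9 genes ran from 2750 bases for Rnf128 to 11372 bases for Cbl, which is longer than 99.1% of the tested genes. Leaving out stimulated replicate 1 kept the direction of the 8 tested genes of the 9 in both comparisons with the stimulated group except Nedd4 against TRAIL, whose small difference became -0.012.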

How the data were processed

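Per the labels and methods, RNA was prepared with TRIzol and the Agilent SureSelect XT HS2 mRNA kit and sequenced as paired ends. The submitters' processing notes name Trimmomatic 0.36, HISAT2 2.1.0, SAMtools 1.2, StringTie 2.1.2 and DESeq2 without roles. These notes list build GRCh38, whereas the methods name GRCm38. The loci of all 9 genes in the table equal GENCODE M21 on GRCm38. The authors deposited 1 table of TPM per gene, with no counts, so no count test was run. Here log2(TPM + 1) was fitted with limma 3.58.1 (R 4.3.3, trended prior) over all 9 libraries without a replicate block, after requiring 1 TPM in at least 3 libraries, with Benjamini-Hochberg adjustment. A gene was counted as called at adjusted p below 0.05 and an absolute difference of at least 1. The script was tested on simulated data. Ratios were compared by exact permutation. Promoter windows are from RefSeq (GRCm38.p6). From each other list, genes called with TRAIL against stimulation were named (group mean 5 TPM or more, at most 3 in each direction), plus genes described for their role. The genes and lists were chosen with earlier results of these data known. Of the marker lists, 1 gene was left out and is not reported here; it was in neither the B cell nor the myeloid list.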

Additional observations from a re-analysis of the deposited data

How the results depend on the processing

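Each difference of the 8 genes was recomputed with other pseudocounts, filters, scalings, with the replicate block and without each library, 480 values in all. Of these 465 kept their direction and side of the threshold, 3 lost the threshold (all for Cbl with TRAIL against stimulation, given above), 4 gained it and 8 changed sign, all where the difference did not pass the test. The 4 that gained it were in TRAIL-treated cells against medium. They were Peli1 (given above), and Cbl (-0.36, limma adjusted p = 0.048, range -0.48 to -0.22 when 1 library was left out) and Itch (-0.22, limma adjusted p = 0.045) without stimulated replicate 1. Under median-of-ratios scaling the same difference was -0.18 for Cbl (limma adjusted p = 0.50) and -0.036 for Itch (limma adjusted p = 0.81). Sign changes were Nedd4 with TRAIL against stimulation (-0.012 without stimulated replicate 1, range -0.012 to 0.20 when 1 library was left out) and, against medium with TRAIL, Cblb (-0.018 without TRAIL-treated replicate 1, range -0.018 to 0.19), Dgka (-0.15 with quantile normalization, -0.025 without TRAIL-treated replicate 1, range -0.025 to 0.12, and -0.0024 when scaled to the summed T cell markers, a scaling chosen after seeing the data that cannot remove RNA of other cells), Dgkz (0.049 with median-of-ratios scaling, range -0.25 to -0.012 when 1 library was left out) and Ndrg1 (-0.054 without medium replicate 1 and -0.063 without TRAIL-treated replicate 1, range -0.063 to 0.20). The cause of these changes was not tested.

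Over all genes 4959, 4800 and 718 were called in stimulated against medium, TRAIL-treated against stimulated and TRAIL-treated against medium. A pseudocount of 5 TPM gave 2946, 2883 and 332, by construction favouring high genes, and 0.1 TPM gave 1167 in the last. Leaving out 1 library gave 4558 to 5018, 4461 to 4832 and 624 to 791. Against medium with TRAIL, 1 of the 8 genes rose under median-of-ratios scaling and 0 to 1 when 1 library was left out, and 1 to 3 fell. With TRAIL against stimulation 4 to 5 rose. With no filter on low genes, which adds genes that seldom pass, 18.6%, 17.9% and 5.86% of all genes passed the test in the 3 comparisons. Median-of-ratios scaling moved the median of all genes by 0.14, 0.021 and 0.16 and quantile normalization by 0.19, -0.061 and 0.14. The share of calls that were higher was 38.8%, 53.8% and 53.9%, and became 47.4%, 55.4% and 73.8% under the first and 52.1%, 48.6% and 70.6% under the second.

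Same-numbered libraries of different groups did not deviate together (correlations of -0.31 to 0.29, with 3 of 9 over 0.1), so the numbers were not taken as pairs. With the replicate block 4960, 4802 and 714 genes were called, no call among the 8 genes changed, and permutation within replicate numbers gave p = 0.056 for Dgka to Dgkz (a log2 difference of 0.92 between TRAIL-treated and stimulated) and 0.083 for Itch to Nedd4 (0.67). TPM without counts leaves the counting error of low genes such as Rnf128 unknown.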
